A study of Saccharomyces cerevisiae with 9 samples.

Results

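The genes for the proteins of the cytosolic ribosome were described across 3 groups of budding yeast, Saccharomyces cerevisiae. Members were taken by symbol: RPL or RPS followed by digits and an optional A or B, and RPP0, RPP1A, RPP1B, RPP2A and RPP2B. The rule uses no measured value and found 137 genes among the 7122 of the table, of which 76 encode proteins of the large subunit (RPL), 56 proteins of the small subunit (RPS) and 5 proteins of the stalk (RPP). They lie on 15 chromosomes, with 19 on chromosome IV and 1 on chromosome III. Without the final A or B their symbols reduce to 78 names, of which 59 have an A and a B gene copy and 19 have a single gene.

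All 3 groups are of the prototrophic strain CEN.PK, a laboratory yeast that makes its own amino acids and bases. The groups were ect1Δpct1Δ, a strain labelled as lacking the cytidylyl-transferase genes ECT1 and PCT1; cpt1Δept1Δ, labelled as lacking the phosphotransferase genes CPT1 and EPT1; and WT. The deleted genes serve successive steps of the CDP-ethanolamine and CDP-choline routes to phospholipids. Cells were grown to log phase in minimal synthetic medium with 2% glucose, and polyadenylated RNA was sequenced in 3 libraries per group. The labels do not say whether the libraries of a group are separate cultures or clones, so the p-values below measure the spread between these libraries and may in part reflect technical spread.

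A cytosolic ribosome is built from ribosomal RNA and a single copy of most ribosomal proteins in each subunit, while the stalk carries several copies of the small acidic P proteins and recruits elongation factors. An ancient duplication of the genome left yeast with paired genes for many of these proteins, and a large part of the introns of this genome lies in them. In growing cells their transcription is among the heaviest of all and is set as a block by nutrient signals that pass through TOR and protein kinase A to the promoter factors Rap1, Fhl1, Ifh1 and Sfp1; it is known to fall in stress and starvation.

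Library totals ran from 5669951 to 11793688 counts. The deleted genes matched the labels: ECT1 had 0 to 2 and PCT1 5 to 11 counts in the ect1Δpct1Δ libraries, against at least 645 and 807 in the WT libraries, and CPT1 had 2 to 5 and EPT1 0 to 4 counts in the cpt1Δept1Δ libraries, against at least 1407 and 854 in WT. A pair of libraries lay highest on the leading principal component of all tested genes other than the members and the deleted genes, with 22.7% of the variance. There ect1Δpct1Δ replicate 2 lay at 7.05 (replicates 1 and 3 at -9.81 and -4.88) and WT replicate 3 lay at 12.9 (replicates 1 and 2 at -4.58 and -1.12). Other libraries also lay far out. On this component ect1Δpct1Δ replicate 1 was further from 0 than replicate 2. On the next component, with 17.3% of the variance, WT replicate 2 lay at 12.2 (replicates 1 and 3 at 5.33 and -0.30). The members' share of counts and the comparisons of the members between groups are given with and without ect1Δpct1Δ replicate 2 and WT replicate 3.

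The ribosomal protein genes took a like part of the counts in every group when all libraries were used, and WT replicate 3 bears on this. Their share of all counts was 16.9, 18.4 and 17.4% in ect1Δpct1Δ replicates 1 to 3, 17.9, 17.1 and 17.6% in cpt1Δept1Δ, and 16.8, 16.5 and 18.9% in WT. The groups overlapped, and WT held both the lowest and the highest of the 9 libraries. Group means were 17.6 ± 0.796% in ect1Δpct1Δ, 17.5 ± 0.420% in cpt1Δept1Δ and 17.4 ± 1.31% in WT (SD, n = 3 libraries each), so that the means differed by less than the spread within any group. The overlap with WT rests on WT replicate 3, since WT replicates 1 and 2 lay below all 6 deletion libraries, of which the lowest had 16.9%. Without WT replicate 3 the WT mean was 16.6%, and without ect1Δpct1Δ replicate 2 the ect1Δpct1Δ mean was 17.1%. As a share of FPKM, which is the count per kilobase of coding length scaled to the library total and so weighs short transcripts like long ones, the members held 33.8, 33.9 and 33.7% in the same 3 groups. Here too WT replicates 1 and 2, at 32.9 and 32.3%, lay below every deletion library (33.0% or more), and WT replicate 3 was the highest at 35.8%. Counts are relative to the library, so less RNA per cell, fewer cells and a change shared by all transcripts cannot be told apart.

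**Figure D1:**
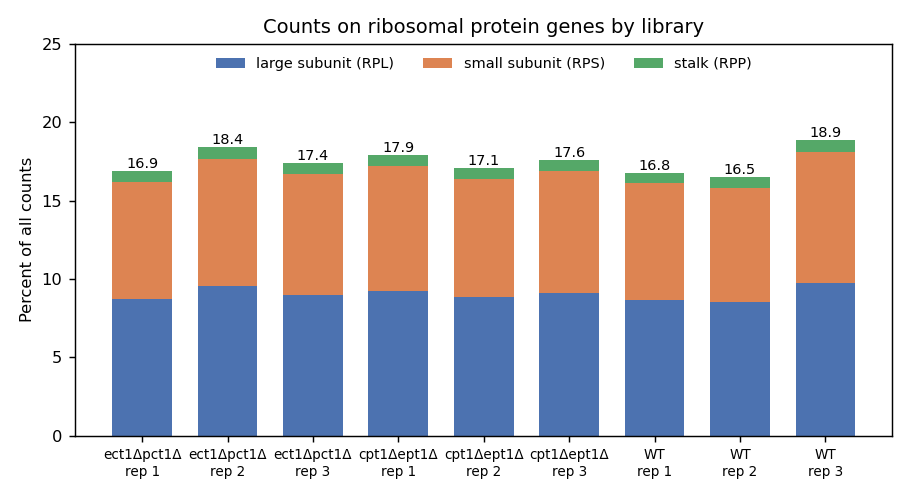
Percent of all counts on ribosomal protein genes (y axis) in each of the 9 libraries (x axis), stacked by large subunit, small subunit and stalk, with the sum above each bar. The sums lie between 16.5 and 18.9%, and WT replicate 3 and ect1Δpct1Δ replicate 2 are the highest.

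The subunits kept their proportion. Large subunit genes took 9.09% of the counts in ect1Δpct1Δ, 9.06% in cpt1Δept1Δ and 8.99% in WT, small subunit genes 7.75, 7.76 and 7.67%, and stalk genes 0.716, 0.709 and 0.714%. The ratio of large to small subunit counts lay between 1.165 and 1.180 in all 9 libraries, a narrower range than that of the shares themselves.

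All 137 members passed the filter on low counts that left 6083 genes for testing, and the least abundant member of a library still had 330 to 706 counts. Their median level in WT was 2599 FPKM, against 34.1 FPKM for the 6629 other genes with a count. Medians were 2267 FPKM for the large subunit, 2959 FPKM for the small subunit and 3636 FPKM for the stalk. Genes without a paralogue had a median of 4546 FPKM in WT, against 2410 FPKM for a member of a pair, and the sum of both copies of a pair had a median of 4713 FPKM. Single genes and summed pairs thus had like medians.

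The 6 highest members in WT are 3 large subunit and 3 small subunit genes. RPL41A and RPL41B encode the same minute protein at the contact between the subunits, and with 78 coding bases they are the shortest members. RPL41A had 17900, 19952 and 16020 FPKM in ect1Δpct1Δ, 18644, 16312 and 18657 in cpt1Δept1Δ, and 15471, 14523 and 21741 in WT. Its lowest and highest values were both in WT, and the groups overlapped. RPL41B followed at 13875 ± 2054 FPKM in ect1Δpct1Δ, 13798 ± 815 in cpt1Δept1Δ and 13167 ± 3090 in WT (SD, n = 3 each). RPS31, whose product is made as a fusion with ubiquitin, came next with 8125 ± 755 FPKM in ect1Δpct1Δ, 7917 ± 580 in cpt1Δept1Δ and 8082 ± 1127 in WT. RPS20 of the small subunit head (7200 ± 397 FPKM in WT), RPS12 (7044 ± 1096) and RPL38 (6280 ± 681) completed the 6 highest. RPL41A lay above RPL41B in each of the 9 libraries, by more in the WT mean than either SD. From RPS31 to RPL38 neighbours in this order differed in WT by less than the larger of their SDs.

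The 2 coding sequences of RPL41 are shown whole because they bear on how far their counts can be trusted. They are from RefSeq, build R64, which is not the genome of CEN.PK. RPL41A lies at chrIV:130407-130484 and RPL41B at chrIV:221724-221801, both on the minus strand, and the capital marks the base by which they differ:
RPL41A: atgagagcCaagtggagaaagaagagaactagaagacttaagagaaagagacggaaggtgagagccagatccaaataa
RPL41B: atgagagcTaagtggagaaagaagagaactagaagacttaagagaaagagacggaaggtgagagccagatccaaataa

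With 1 of 78 bases different, reads inside these frames can be assigned only where they cover that base or reach the flanking sequence. The treatment of such multiply matching reads by the authors' counting was not found in the labels, so the split of RPL41 between its copies is uncertain.

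**Figure D2:**
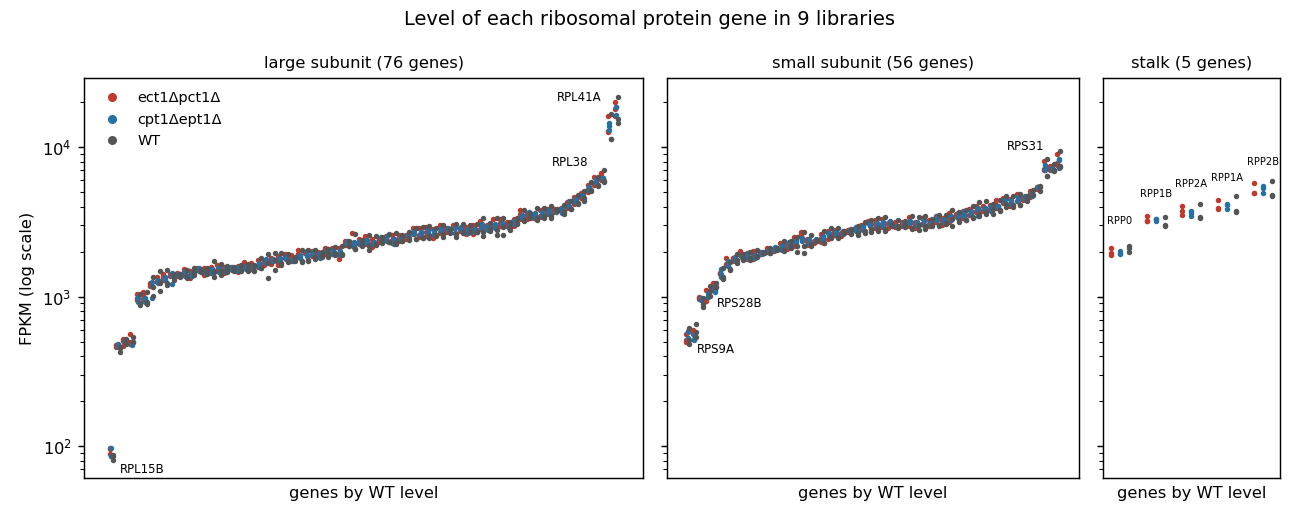
FPKM on a log axis of each of the 137 genes, ordered by WT level within the large subunit, the small subunit and the stalk; each point is 1 library. RPL15B lies alone at the bottom near 84.6 FPKM and RPL41A and RPL41B at the top, and the colours of the 3 groups overlie each other.

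At the other end RPL15B stood far below all other members. It had 88.0, 97.3 and 95.2 FPKM in ect1Δpct1Δ, 96.5, 85.5 and 86.3 in cpt1Δept1Δ, and 80.5, 86.1 and 87.4 in WT. The ect1Δpct1Δ libraries were all above the WT libraries in FPKM, while the TMM-scaled CPM used for tests overlapped (53.3, 60.7 and 58.0 in ect1Δpct1Δ against 49.1, 52.6 and 54.8 in WT). The next lowest in WT were RPL18B (447 ± 17.3 FPKM), RPL7B (504 ± 16.7), RPL22B (510 ± 21.4), RPS9A (536 ± 70.4) and RPS14B (590 ± 56.7), whose neighbours in this order differ by less than the larger of their SDs, except RPL18B and RPL7B. Each of these 6 is the minor copy of a pair. Single genes reached no lower than 1513 FPKM (RPL28).

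Within the stalk the levels were less spread. RPP0, the scaffold that holds the acidic P proteins and is the only stalk gene without a paralogue, was the lowest, with 1991 ± 113 FPKM in ect1Δpct1Δ, 1966 ± 51.0 in cpt1Δept1Δ and 2086 ± 93.3 in WT. The 4 genes of the acidic proteins, which share the work of contacting elongation factors, lay above it and reached 5139 FPKM in WT.

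Introns are a trait of these genes that the choice by symbol did not use. In the R64 annotation 89 of the 137 members (65.0%) have an intron, against 5.48% of all 6004 protein-coding genes of the table. By class these are 52 large subunit genes, 36 small subunit genes and 1 stalk gene. RPL7A and RPL7B have 2 introns each, which makes 91 introns in all. In members with a single intron it is 147 to 561 bases long, with a median of 405. Of the 91 introns 68 open with GTATGT and 23 with another hexamer. Among the 23 are both introns of RPS9, the RPS14B intron and the RPL22B intron, which open with GTACGT. Median WT levels were 2432 FPKM with an intron and 3081 FPKM without. Small nucleolar RNAs, which guide the modification of ribosomal RNA, lie in the introns of RPL7A (SNR39), RPL7B (SNR59) and RPS22B (SNR44).

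Rap1 is the factor that recruits Fhl1 and Ifh1 to many of these promoters. The letters CACCC, any 2 bases and ACA, a short form of its binding sequence, were searched on both strands of the 500 bases before each start codon. They were found before 29 of 137 members (21.2%) and before 1.77% of 5865 other genes, or 2.22% of all promoters. The matches lay 163 to 474 bases before the start codon, with a median of 336. For Abf1, which serves other ribosomal protein promoters, the letters TCA, any 6 bases and ACG were found before 24 members (17.5%) and before 22.7% of all promoters, and matches of the 2 motifs overlapped in 0 promoters. Of the members 88 had neither. Only exact matches of these letters were counted, so the lack of a match does not show that the factor does not bind there. Median WT levels were 2614 FPKM for members with the Rap1 letters and 2550 FPKM for those without. The following windows of 30 bases (RefSeq, R64) show the match for members of high and of low level; capitals mark the matched letters, and in RPL40B the match is on the opposite strand of the gene:
RPL41B, chrIV:222127-222156, minus strand: acggttaccaCACCCGTACAcccttatctc
RPL22B, chrVI:65159-65188, minus strand: tccatgtcaaCACCCGTACAtattcagaga
RPL7A, chrVII:366229-366258, minus strand: atcatataaaCACCCACACAtatctataaa
RPL40B, chrXI:618974-619003, minus strand: tttgtgtagtTGTCTGGGTGcaatctttcc
RPL36A, chrXIII:650972-651001, plus strand: gactgttttaCACCCGTACAtttcacagtt
RPL36B, chrXVI:76535-76564, minus strand: actgtattttCACCCGTACAtccacggatg

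RPL41B, which is among the highest members, and RPL22B, among the lowest, hold the same 10 letters. RPL36A and RPL36B hold them as well, yet RPL36B stood 4.05-fold above RPL36A in WT. The presence of these letters and the level are thus separate descriptions here.

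Some members share their place with another gene. Of the 137, 16 overlap another annotated gene, 15 of them on the opposite strand, and in 10 more than 50% of the coding bases are overlapped. These 10 are RPL43A (99.3%), RPL22A, RPL39, RPL36B, RPL28, RPL33A, RPL12A, RPL12B, RPL10 and RPL8B (53.7%). The frame opposite RPL39, the protein that lines the exit tunnel, carried 2055 to 5404 counts per library. The labels do not say whether counting used the strand, so reads of such partners cannot be told apart. The median WT level of the 10 was 1596 FPKM, against 2656 FPKM for the other 127.

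The share of the A copy in each pair differed widely between pairs and little between groups. It was computed as the FPKM of A over that of A and B together, so that copies of unequal length can be set side by side. In WT, 34 of the 59 pairs lay between 40 and 60%, 15 of these between 45 and 55%, and 9 beyond 75% for the higher copy. A was the higher copy in 33 pairs and B in 26. Across all 9 libraries a pair's share moved by a median of 2.53 percentage points, from 0.365 points for RPL15 to 5.24 points for RPL22, whose 9 values lay between 67.0 and 72.2% and whose A copy is among the overlapped genes. The higher copy changed among libraries in 4 pairs, RPL12, RPL35 and RPS21 among them, all near 50%.

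**Figure D3:**
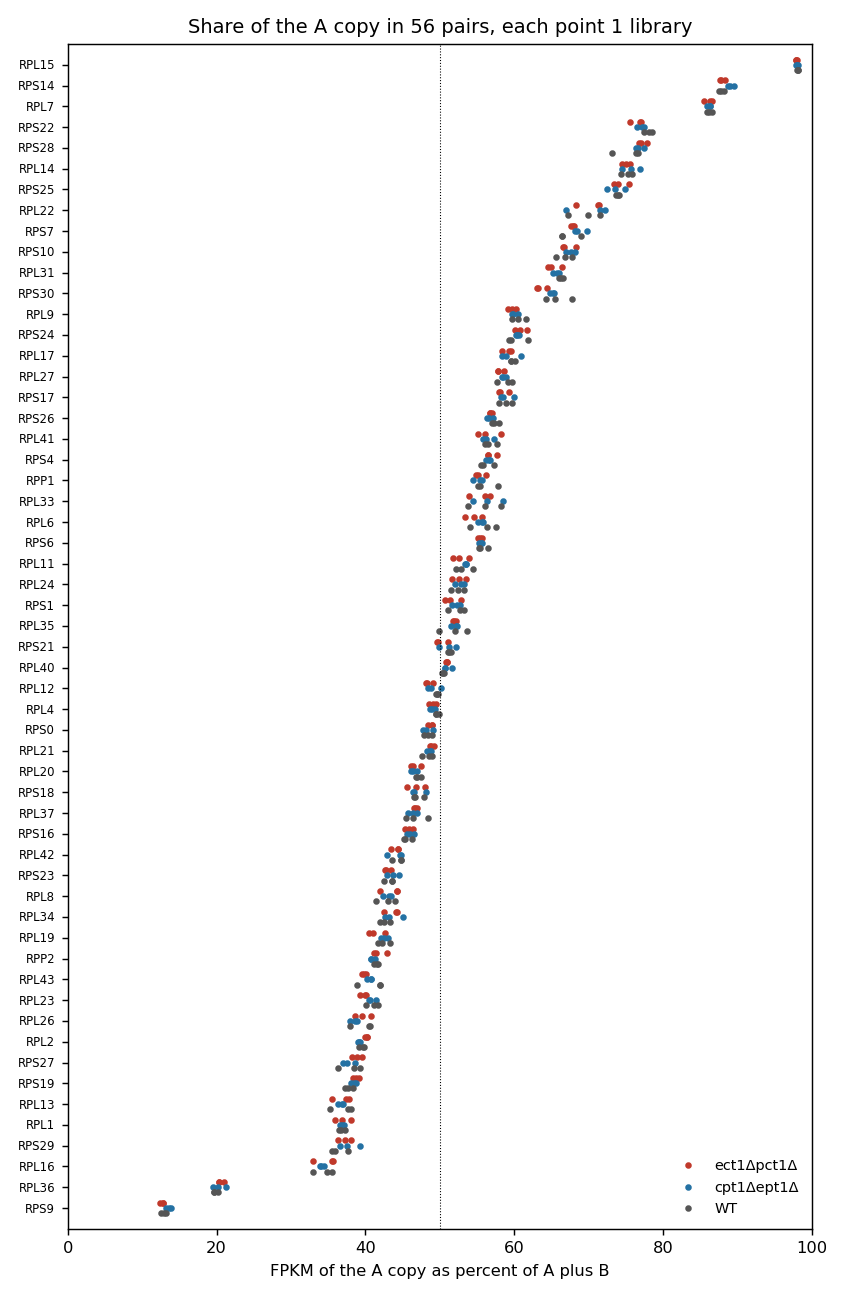
FPKM of the A copy as percent of A plus B (x axis) for 56 of the 59 pairs (y axis), ordered by WT mean; each point is 1 library and the dotted line marks equal copies. Points of all 3 groups cluster within each pair, from RPL15 near 98.1% to RPS9 near 12.9%.

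The most unequal pair was RPL15, a large subunit protein needed early in subunit assembly. The A share was 97.9, 97.9 and 97.8% in ect1Δpct1Δ, 97.9, 98.0 and 98.1% in cpt1Δept1Δ, and 98.1, 98.0 and 98.2% in WT. RPL15A thus exceeded RPL15B 51.4-fold in WT. Other strongly unequal pairs were RPS14, RPL7, RPS9 and RPL36. RPS14, a protein of the platform of the small subunit, had 87.9 ± 0.311% in ect1Δpct1Δ, 89.1 ± 0.422% in cpt1Δept1Δ and 87.8 ± 0.293% in WT. In RPL7 the A share was 86.1 ± 0.580, 86.2 ± 0.257 and 86.2 ± 0.379% in these groups; its copies share a stretch of 245 bases without a difference, so this split is uncertain. RPS9, a protein that bears on decoding accuracy, runs the other way, with 12.7 ± 0.213% A in ect1Δpct1Δ, 13.6 ± 0.292% in cpt1Δept1Δ and 12.9 ± 0.367% in WT, so that RPS9B exceeded RPS9A 6.75-fold in WT. RPL36 had 20.5 ± 0.386, 20.3 ± 0.885 and 19.8 ± 0.307% A.

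For 3 of the most unequal pairs the copies can be told apart by sequence, which the coding starts show. Capitals mark the bases that differ after alignment; the sequences are spliced, from RefSeq R64, and belong to RPL15A (chrXII:201976-202590, minus strand), RPL15B (chrXIII:509734-510348, minus), RPS14A (chrIII:177500-178220, minus), RPS14B (chrX:73787-74611, plus), RPS9A (chrXVI:404950-406044, plus) and RPS9B (chrII:604508-605508, plus):
RPL15A: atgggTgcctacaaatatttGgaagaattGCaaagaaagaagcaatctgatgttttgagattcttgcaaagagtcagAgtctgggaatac
RPL15B: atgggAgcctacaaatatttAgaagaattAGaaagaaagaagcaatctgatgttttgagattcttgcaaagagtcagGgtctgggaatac
RPS14A: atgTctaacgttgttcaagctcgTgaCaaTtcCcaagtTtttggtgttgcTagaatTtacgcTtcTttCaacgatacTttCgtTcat
RPS14B: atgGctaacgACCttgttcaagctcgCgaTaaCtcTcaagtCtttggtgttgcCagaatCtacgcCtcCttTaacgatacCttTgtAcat
RPS9A: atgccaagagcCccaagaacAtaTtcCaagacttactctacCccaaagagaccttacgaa
RPS9B: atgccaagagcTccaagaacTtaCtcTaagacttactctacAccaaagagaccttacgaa

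In this stretch RPL15 differs at 5 positions, RPS14 at 17, of which 3 are bases of the B copy alone, and RPS9 at 5. Over the whole coding sequence the identity of pairs ran from 69.2% (RPP1) to 99.4% (RPL1), with a median of 93.2%, and the longest stretch without a difference from 23 to 465 bases, with a median of 70. The longest stretch was 116 bases in RPL15, 92 in RPS14 and 76 in RPS9.

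In 10 pairs such a stretch reached at least 150 bases, and their split between copies is uncertain. RPL7, RPL1, RPL2, RPL4, RPL11, RPL35, RPS4, RPS6 and RPS24 are among them. The most alike pairs were RPL1, RPL35, RPS6, RPL4 and RPL41, with 99.4, 99.2, 99.2, 98.9 and 98.7% identity. Of these RPL1, the mobile arm at the exit for transfer RNA, departed from equal copies most, with 36.9 ± 1.12% A in ect1Δpct1Δ, 36.9 ± 0.272% in cpt1Δept1Δ and 36.8 ± 0.408% in WT. RPL35, RPS6 and RPL41 lay between 51.8 and 56.7% in WT. Of the other nearly equal pairs, RPL12, RPL40, RPS21 and RPS0 had WT shares of 48.4 to 51.3% and identities of 90.3 to 93.8%. In RPL12 over 50% of both frames is overlapped by opposite genes, which adds to the uncertainty of its share. RPL40, whose product like that of RPS31 is made fused to ubiquitin, had 51.0, 50.9 and 51.0% A in ect1Δpct1Δ, 50.7, 50.7 and 51.6% in cpt1Δept1Δ, and 50.6, 50.2 and 50.5% in WT.

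The comparison of ect1Δpct1Δ with WT asks whether loss of both cytidylyl-transferases goes with a shift of these genes. No ribosomal protein gene changed by the test: 0 of 137 members passed an adjusted p of 0.05 in edgeR's quasi-likelihood test with Benjamini-Hochberg adjustment over all genes, where 28 of 6083 genes (0.46%) did, 16 higher (0.263%) and 12 lower (0.197%). At an unadjusted p below 0.05 there were 0 members, against 6.61% of all genes, and DESeq2 called 0 members with 1 at an unadjusted p below 0.05. The log2 fold changes had a median of 0.01 over the members and 0.00 over all genes, and 82 members (59.9%) were positive, against 51.2% of all genes. Scaled by library size alone, 98 members were positive, with a median of 0.02 over the members and 0.01 over all genes. By class the medians were 0.02 for the large subunit, 0.00 for the small subunit and 0.01 for the stalk. In 0 members did the ect1Δpct1Δ libraries lie wholly above or below those of WT, against 5.92% of all genes above and 4.67% below.

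The largest difference was that of RPS30B, a small basic protein of the small subunit. It had 481, 524 and 488 CPM in ect1Δpct1Δ and 414, 373 and 528 CPM in WT. WT replicates 1 and 2 lay below all ect1Δpct1Δ libraries, and WT replicate 3 lay above them. Its log2 fold change was 0.19 with an SE of 0.088 and an edgeR Benjamini-Hochberg adjusted p of 0.751. Without WT replicate 3 the fold change was 0.33 and passed the same edgeR test (Benjamini-Hochberg adjusted p = 0.00773), and without that library and ect1Δpct1Δ replicate 2 it was 0.29 (edgeR, Benjamini-Hochberg adjusted p = 0.0234). RPS30B passed in ect1Δpct1Δ only under those settings. Its log2 fold change was positive under every alternative, from 0.08 to 0.33 with single libraries left out.

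The other large positive log2 fold changes were 0.15 for RPL15B, 0.10 for RPS22B, 0.10 for RPS21B and 0.09 for RPS19A, all 4 with edgeR Benjamini-Hochberg adjusted p-values of 0.846 to 0.884. At the negative end stood RPS28B, at -0.13, whose protein is known to bind its own message and direct its decay. It had 189, 228 and 188 CPM in ect1Δpct1Δ and 204, 221 and 245 CPM in WT, which overlap. RPP0, RPL4A and RPL6A followed at -0.08, -0.07 and -0.06. Intervals of 95% around the members' fold changes reached from -0.30 to 0.37 at most. For 102 of 137 members the whole interval lay within 0.2 of 0, against 1690 of 6083 genes, so that shifts beyond that size would lie outside it. The members move together from library to library, so the 102 intervals are not separate bounds.

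**Figure D4:**
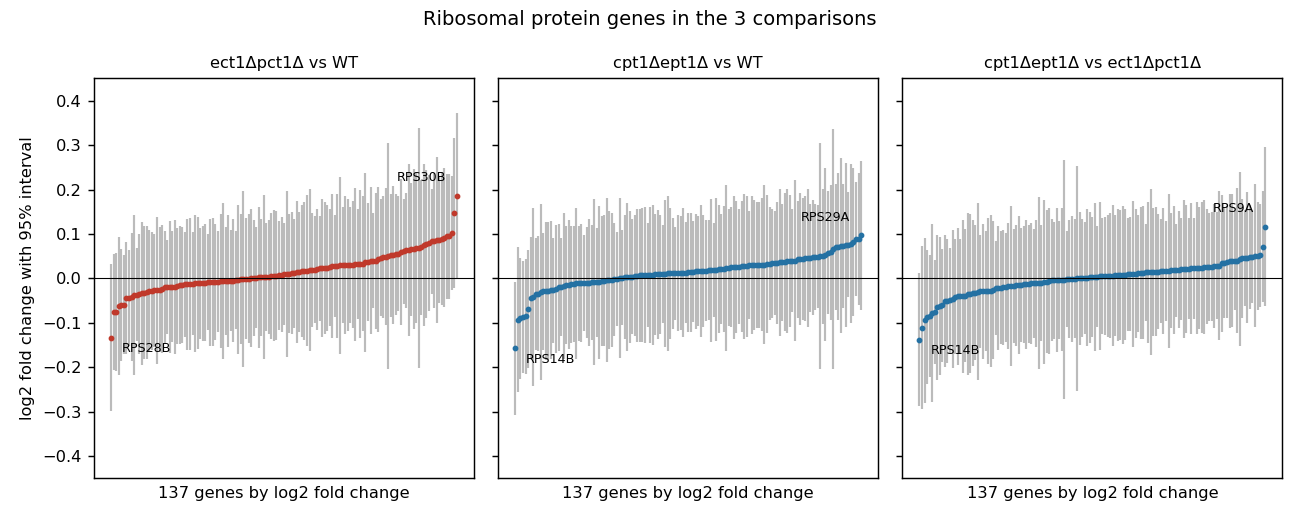
Log2 fold change (y axis, points) with its 95% interval (bars) of the 137 genes, ordered by size, in ect1Δpct1Δ vs WT, cpt1Δept1Δ vs WT and cpt1Δept1Δ vs ect1Δpct1Δ. Points lie between -0.16 and 0.19, and in 1 case, RPS14B in cpt1Δept1Δ vs WT, the interval does not reach 0.

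The comparison of cpt1Δept1Δ with WT asks the same of the last step of the route. It shares its WT libraries with the comparison above. By edgeR with Benjamini-Hochberg adjustment 0 of 137 members passed, where 8 of 6083 genes (0.132%) did, 4 higher and 4 lower (0.0658% each), and DESeq2 called 0 members. An unadjusted p below 0.05 was reached by 1 member in each tool, against 5.28% of all genes with edgeR. The median log2 fold change was 0.01 over the members and 0.00 over all genes, with 96 members (70.1%) positive, against 49.2% of all genes. These 96 were 52 of 76 large subunit genes, 42 of 56 small subunit genes and 2 of 5 stalk genes.

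The member at an unadjusted p of 0.0407 in edgeR was RPS14B (Benjamini-Hochberg adjusted p = 0.938). Rps14 protein is known to repress the splicing of this copy's transcript. RPS14B had 214, 216 and 232 CPM in cpt1Δept1Δ and 223, 241 and 277 CPM in WT. The groups overlapped at 1 library each, and WT replicate 3 was the highest. Its log2 fold change was -0.16 with an SE of 0.071, and it was -0.07 without WT replicate 3. RPS14A, the major copy, stood at 0.01.

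Of all members only RPL22B had cpt1Δept1Δ libraries wholly below those of WT, against 5.19% of all genes; 0 lay wholly above, against 5.24%. Like RPS14B, this copy carries an intron whose splicing the protein it encodes is known to hold back. RPL22B had 178, 173 and 180 CPM in cpt1Δept1Δ and 183, 182 and 201 CPM in WT. The gap between the groups was small beside the spread of WT, and the log2 fold change of -0.09 had an edgeR Benjamini-Hochberg adjusted p of 1.00. RPS28B, RPS7B and RPP0 also stood at -0.09. The 5 largest positive values were 0.10 for RPS29A, 0.09 for RPS26B and RPS22B, and 0.08 for RPL15B and RPS9A. RPS29A, a zinc-binding protein near the messenger RNA channel, had 395, 414 and 411 CPM in cpt1Δept1Δ and 367, 337 and 439 CPM in WT, which overlap through WT replicate 3.

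The comparison of cpt1Δept1Δ with ect1Δpct1Δ tests the difference between the strains and does not use the WT levels. Its edgeR p-values still rest on a spread estimated from all 9 libraries, those of WT included. With edgeR and Benjamini-Hochberg adjustment 0 of 137 members passed, where 12 of 6083 genes (0.197%) did, 5 higher (0.0822%) and 7 lower (0.115%). DESeq2 called 0, and in both tools 0 members reached an unadjusted p below 0.05, against 4.72% of all genes with edgeR. The median log2 fold change was 0.00 over the members and over all genes. Positive values were found for 72 members (52.6%), against 48.4% of all genes, and for 56 when libraries were scaled by size alone. Under that scaling the median was -0.005 over the members and -0.011 over all genes. RPS4B lay wholly above in cpt1Δept1Δ (1891, 1848 and 1891 CPM against 1768, 1846 and 1828 in ect1Δpct1Δ), which held for 4.75% of all genes. RPS27A and RPS30B lay wholly below, which held for 5.59% of all genes.

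RPS27A had 460, 454 and 463 CPM in cpt1Δept1Δ and 464, 506 and 481 CPM in ect1Δpct1Δ. RPS30B had 474, 453 and 456 CPM in cpt1Δept1Δ against the 481, 524 and 488 CPM of ect1Δpct1Δ. In both, the nearest libraries of the groups were close to touching. Among the largest log2 fold changes were 0.12 for RPS9A and 0.05 for RPS1A, RPL2B and RPL11A at the positive end. At the negative end stood -0.14 for RPS14B, -0.11 for RPS30B, -0.09 for RPL29 and RPL14B, and -0.08 for RPL22B. RPS9A had 350, 315 and 347 CPM in cpt1Δept1Δ and 299, 340 and 292 CPM in ect1Δpct1Δ, overlapping through ect1Δpct1Δ replicate 2.

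Both copies of a pair are read in the same library, so a shift common to all members leaves their share as it is. The mean share differed by a median of 0.541 percentage points between ect1Δpct1Δ and WT, 0.403 points between cpt1Δept1Δ and WT, and 0.421 points between cpt1Δept1Δ and ect1Δpct1Δ. Shares did not overlap in 10 of 59 pairs (16.9%), 4 of 59 (6.78%) and 8 of 59 (13.6%) in these comparisons. With 3 libraries against 3, an exact two-sided permutation test of a single share cannot give a p below 0.1, so none of these is called. About a share of 0.1 of the pairs would also lack overlap if libraries were interchangeable between groups. The percentages above lie on both sides of that share.

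RPS14 was the pair whose cpt1Δept1Δ libraries lay apart from both other groups. Its A share was 89.5, 88.9 and 88.7% in cpt1Δept1Δ, 87.8, 88.3 and 87.7% in ect1Δpct1Δ, and 88.1, 87.5 and 87.8% in WT. All cpt1Δept1Δ libraries were above the other 6, by 1.22 points in the mean against WT and 1.14 points against ect1Δpct1Δ. The pair was singled out after its values were seen, and 0.1 is the smallest p of an exact permutation test against either group. Other pairs also had a group set apart. In RPL2, whose split is uncertain, the ect1Δpct1Δ libraries lay above both other groups. In RPL40 the libraries of both deletion strains lay above those of WT.

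Between ect1Δpct1Δ and WT the largest difference was -2.25 points for RPS30, with 63.3, 64.5 and 63.0% in ect1Δpct1Δ and 65.5, 67.7 and 64.3% in WT. WT replicate 3 fell among the ect1Δpct1Δ values. RPS28 differed by 1.82 points, with 77.0, 76.7 and 77.8% in ect1Δpct1Δ and 76.6, 73.1 and 76.4% in WT, where WT replicate 2 was far below the others. RPS22, whose B copy alone has an intron, differed by -1.54 points without overlap (75.5, 77.0 and 76.9% against 78.5, 77.4 and 78.1%), and RPL6 by -1.40 points with overlap.

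Between cpt1Δept1Δ and WT, RPS7 differed by 1.53, RPS28 by 1.44, RPS29 by 1.42 and RPL26 by -1.25 points, all with overlapping libraries. Between cpt1Δept1Δ and ect1Δpct1Δ, RPS30 differed by 1.54 and RPS14 by 1.14 points without overlap, and RPL26 by -1.19 and RPS27 by -1.14 points with overlap.

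The members moved together from library to library within a group more than they differed between groups. In WT, replicate 3 was the highest library for 137 of 137 members, and for 37.7% of the other tested genes. In ect1Δpct1Δ, replicate 2 was the highest for 135 members, and for 35.8% of other genes, while replicate 1 was the lowest for 123 members and for 31.1% of other genes. In cpt1Δept1Δ, replicate 2 was the lowest for 116 members and for 33.1% of other genes. Against the mean of the other libraries of its group, the median member stood at 0.14 (log2) in ect1Δpct1Δ replicate 2 and at 0.22 in WT replicate 3, and the medians of the remaining 7 libraries lay between -0.13 and 0.04.

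**Figure D5:**
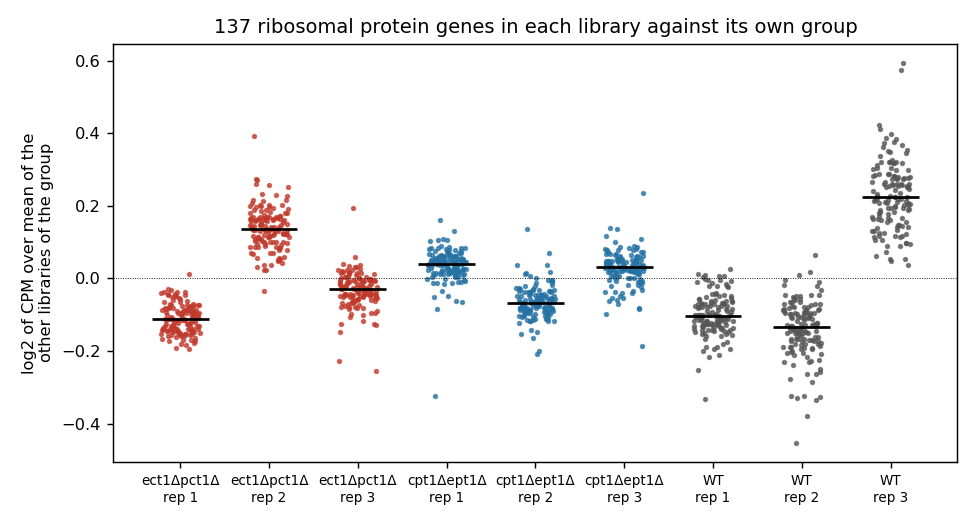
Log2 ratio of CPM in 1 library to the mean of the other libraries of its group (y axis) for the 137 genes (points, bar at the median) in each of the 9 libraries (x axis). All points of WT replicate 3 lie above 0 and nearly all of ect1Δpct1Δ replicate 2 do.

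The members also spread more within a group than other genes at their level in ect1Δpct1Δ and WT, but not in cpt1Δept1Δ. The median coefficient of variation of CPM over the 3 libraries was 6.26% for the members in ect1Δpct1Δ, 3.23% in cpt1Δept1Δ and 9.27% in WT. For 455 other genes in the members' range of CPM it was 4.13, 3.34 and 4.34%. In WT the largest coefficients belonged to RPL41B (25.1%), RPL41A (24.4%), RPL39 (19.2%), RPS30B (18.2%) and RPL43A (17.3%), and the smallest to RPL5 (1.97%), the protein that carries 5S ribosomal RNA into the large subunit. RPL41B had 881, 884 and 1332 CPM in WT replicates 1 to 3. RPL39 had 260, 207 and 305 CPM there, and 251, 275 and 261 CPM in ect1Δpct1Δ.

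The shift of WT replicate 3 was larger in shorter members. Its median was 0.31 (log2) for the 19 members of at most 300 coding bases, 0.23 for the 89 members of over 300 to 600 bases and 0.15 for the 29 members of over 600 to 1200 bases. In other genes at the members' level it was 0.08 (11 genes), 0.19 (42 genes) and 0.07 (128 genes) in the same length classes and -0.05 in 274 longer genes. Short transcripts other than the members were also higher in the same libraries. The 1129 other protein-coding genes of at most 600 coding bases together held 76061, 80019 and 76481 CPM in ect1Δpct1Δ, 77632, 74420 and 75191 CPM in cpt1Δept1Δ, and 72423, 71930 and 78009 CPM in WT. The part of transcript length in the members' results was not tested.

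The comparisons with WT therefore depend on WT replicate 3. Without it the median log2 fold change of the members was 0.08 in ect1Δpct1Δ, with 128 positive, and 0.09 in cpt1Δept1Δ, with 131 positive, while the median of all genes stayed at 0.00 in both. An unadjusted p below 0.05 was then reached by 34 members in each comparison, all higher in the deletion strain, which is 24.8% of the members against 11.6% of all genes in ect1Δpct1Δ and 8.79% in cpt1Δept1Δ. WT replicate 3 was the highest WT library for 137 of 137 members, so leaving it out lowers the WT mean of each. The direction thus follows in part from that choice. The members move together and both comparisons use the same remaining WT libraries, so the counts of 34 are not separate results. By edgeR with Benjamini-Hochberg adjustment RPS30B passed in ect1Δpct1Δ, where 0.649% of all genes did, and 0 members passed in cpt1Δept1Δ, where 0.13% of all genes did. Between cpt1Δept1Δ and ect1Δpct1Δ 0 members passed, where 0.211% of all genes did, and 1 had an unadjusted p below 0.05, where 5.59% did.

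With ect1Δpct1Δ replicate 2 left out as well, which was decided on after seeing how the libraries lay, the medians were 0.04 in ect1Δpct1Δ against WT and 0.09 in cpt1Δept1Δ against WT. Replicate 2 was the highest ect1Δpct1Δ library for 135 members, so leaving it out lowers their ect1Δpct1Δ mean. An unadjusted p below 0.05 was reached by 19 members in ect1Δpct1Δ against WT, 18 of them higher, where 9.05% of all genes did. In cpt1Δept1Δ against WT it was 60 members, all higher, where 11.8% of all genes did. RPL41B then passed in cpt1Δept1Δ against WT with a log2 fold change of 0.29 (edgeR, Benjamini-Hochberg adjusted p = 0.0142), where 0.262% of all genes passed, as RPS30B did in ect1Δpct1Δ against WT, where 0.638% passed. Without WT replicate 3 alone its edgeR Benjamini-Hochberg adjusted p was 0.330. Between cpt1Δept1Δ and ect1Δpct1Δ 0 members passed with both libraries left out, where 0.376% of all genes did, and 13 members, all higher, had an unadjusted p below 0.05, where 9.13% did, with a median of 0.05. Leaving out other single libraries turned the sign of the medians, down to -0.04 in ect1Δpct1Δ against WT without ect1Δpct1Δ replicate 2, to -0.03 in cpt1Δept1Δ against WT without WT replicate 2, and to -0.03 in cpt1Δept1Δ against ect1Δpct1Δ without ect1Δpct1Δ replicate 1.

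The genes that control these promoters showed no called change of their transcripts in either strain, and the activity of their proteins was not measured. Of 11 regulators 0 passed edgeR with Benjamini-Hochberg adjustment in any of the 3 comparisons, and 0 had an unadjusted p below 0.05. In ect1Δpct1Δ against WT and in cpt1Δept1Δ against WT the log2 fold changes were 0.07 and 0.05 for RAP1, 0.01 and -0.02 for FHL1, -0.04 and -0.11 for the coactivator IFH1, and -0.03 and 0.06 for its competitor CRF1. They were -0.02 and 0.02 for SFP1, the growth-regulated activator, -0.05 and -0.03 for HMO1, which binds many of these promoters, and 0.05 and 0.04 for MRS6, which binds Sfp1. For the general factors they were 0.02 and 0.01 (ABF1), -0.10 and -0.04 (REB1) and -0.04 and 0.08 (TBF1), and for the repressor STB3 -0.02 and -0.06. The medians of the list were -0.02 in ect1Δpct1Δ and 0.01 in cpt1Δept1Δ, and -0.01 between cpt1Δept1Δ and ect1Δpct1Δ.

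Of 13 genes of TOR and protein kinase A signalling 0 passed in any comparison (edgeR, Benjamini-Hochberg), and 1 had an unadjusted p below 0.05. This was SCH9, a kinase downstream of TOR, with a log2 fold change of -0.14 in ect1Δpct1Δ (175 ± 5.69 CPM, against 192 ± 7.86 in WT, SD, n = 3 each; edgeR, Benjamini-Hochberg adjusted p = 0.650). Among 13 of 14 listed chaperones, modifiers and other ribosome-bound proteins 0 passed, with medians of -0.03 in ect1Δpct1Δ and 0.00 in cpt1Δept1Δ against WT. Among 15 of 16 listed translation factors 0 passed. Of these 14 were negative in ect1Δpct1Δ against WT, with a median of -0.04, and 15 positive in cpt1Δept1Δ against ect1Δpct1Δ, with a median of 0.04; TEF4, a subunit of elongation factor 1B, had the lowest value in ect1Δpct1Δ, -0.10. None of the chaperones, modifiers or translation factors had an unadjusted p below 0.05 in these 3 comparisons.

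Genes of stress and stationary phase, in which ribosomal protein genes are known to fall, were read as a sign of the state of the cultures. The list was chosen with earlier results of these data known, so setting it beside all genes describes it and is no test. Of 20 listed genes, 2 rose in ect1Δpct1Δ against WT, where 0.263% of all genes did, and 9 had an unadjusted p below 0.05, against 6.61% of all genes. Lower were SNZ1 (log2 fold change -0.18), SNO1 (-0.18) and HSP104 (-0.03), none of them called. In SNZ1 the ect1Δpct1Δ libraries lay wholly below those of WT, as in 4.67% of all genes. HSP30, a stress-induced membrane protein, stood at 116 ± 4.73 CPM in ect1Δpct1Δ and 74.4 ± 9.98 CPM in WT (log2 fold change 0.64; edgeR, Benjamini-Hochberg adjusted p = 0.000164), and YGP1, a secreted glycoprotein, at 55.4 ± 9.48 and 37.2 ± 5.20 CPM (0.55; edgeR, Benjamini-Hochberg adjusted p = 0.0352). The list had a median of 0.23 with 17 of 20 positive there, 0.10 with 15 positive in cpt1Δept1Δ against WT, and -0.11 with 4 positive in cpt1Δept1Δ against ect1Δpct1Δ; 0 of 20 passed in the last 2. An unadjusted p below 0.05 was reached there by 2 and 6 genes of the list, against 5.28 and 4.72% of all genes. Its summed level was 883, 944 and 935 CPM in ect1Δpct1Δ, 872, 799 and 840 CPM in cpt1Δept1Δ, and 792, 843 and 762 CPM in WT, and 0 of its genes were at 0 counts in any library. The ect1Δpct1Δ libraries were all above those of WT in this sum, while the ribosomal protein genes had a median of 0.01 in the same comparison. The part of culture state in the members' results was not tested.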

How the data were processed

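RNA sequencing of 9 libraries, 3 each of ect1Δpct1Δ, cpt1Δept1Δ and WT, was used; groups and replicate numbers come from the titles. The authors deposited raw count and FPKM values per gene and library in 1 table. HISAT2 2.2.1, HTSeq 0.6.1 and build R64 are named per the submitters' processing notes, with no role. Whether strand was used, and what was done with multiply matching reads, was not found in the labels. The deposited FPKM values equal the count per kilobase of coding length, scaled to the library total, within 0.0051 or a relative 0.002 in 100% of 64098 values. Another 6 columns, of 3 libraries with no matching sample, were not used, and 4 lines came with emptied values. In replicates 2 and 3 the genotype labels number the gene names on (pct2, ept3), and the series text names other deleted genes, so the deleted genes were checked in the counts.

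The test of counts was that of edgeR 4.0.16, run in R 4.3.3 (glmQLFit and glmQLFTest, TMM, filterByExpr, which removed 1039 genes and left 6083), with all 9 libraries in 1 fit, two-sided p-values and Benjamini-Hochberg adjustment over the genes tested, called below 0.05. CPM are TMM-scaled; log2 fold changes carry 95% intervals from their SE. The scripts were tested on simulated data. Alternatives used DESeq2 1.42.0, limma 3.58.1 on log2 FPKM with a pseudocount, other scaling, no filter, a replicate block and leaving out libraries. Same-numbered libraries of different groups did not deviate together (correlations of -0.43 to 0.41, 2 of 9 above 0.1), so numbers were not taken to pair them. Within groups libraries differed by more than sampling noise (chi-square per gene 2.34 to 9.21), so none was taken as a copy of another; this does not show whether they are separate cultures. Coding identities, introns, overlaps, motifs and sequences were computed with Python 3.11.15 and Biopython 1.88 from the RefSeq annotation of R64, in which all 137 members have the same position and coding length.

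The members and lists were chosen with earlier results of these data known. Named are members called in any comparison, the 5 largest positive and negative fold changes per comparison, the 6 highest and lowest in WT, the 6 most and least equal pairs, the 4 largest share differences per comparison, the 6 most alike pairs, the 5 largest WT coefficients of variation, the regulators, and up to 4 genes of other lists. Members whose groups do not overlap, RPL28, RPL5, RPS14A, the overlapped genes and the stress genes lower in ect1Δpct1Δ were named after their values were seen. A few genes and pairs that this rule names are not reported here.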

Additional observations from a re-analysis of the deposited data

How the results depend on the processing

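The spread between 3 libraries per group, more than depth, limits what can be seen: members had 330 counts or more in every library, while libraries of a group differed by more than counting noise. The half-width of the members' 95% intervals had a median of 0.14 (log2), so smaller shifts would for most not be detectable. The count of members called stayed at 0 under DESeq2, limma, other scaling, no filter, the 2 groups alone and the replicate block, which called 23, 7 and 11 genes in ect1Δpct1Δ vs WT, cpt1Δept1Δ vs WT and cpt1Δept1Δ vs ect1Δpct1Δ, against 28, 8 and 12 without it. Leaving out 1 library gave 17 to 40, 4 to 9 and 10 to 13 called genes, 0 to 1 called members in ect1Δpct1Δ vs WT and 0 in the others, and 12 to 20, 8 to 18 and 12 to 18 pairs without overlap, against 10, 4 and 8; with 2 libraries in a group, overlap is less likely by construction. DESeq2 called 16 genes in cpt1Δept1Δ vs WT. Without WT replicate 3 and ect1Δpct1Δ replicate 2 there were 16 genes in cpt1Δept1Δ vs WT, 23 in cpt1Δept1Δ vs ect1Δpct1Δ, and 1 member in each comparison with WT. The members' share was 19.5% in ect1Δpct1Δ, 19.5% in cpt1Δept1Δ and 19.3% in WT without the 10 highest other genes, and 33.8, 33.9 and 33.7% of FPKM. RPL6A in ect1Δpct1Δ vs WT ran from -0.15 to 0.01 over single libraries left out (0.000505 without ect1Δpct1Δ replicate 1 and 0.0134 without WT replicate 3), and RPL29 in cpt1Δept1Δ vs ect1Δpct1Δ from -0.14 to 0.00 (0.0013 without ect1Δpct1Δ replicate 2 and 0.00144 without WT replicate 3 as well); neither was called, and the cause was not tested. RPS30B, not called with all libraries, was called at 0.33 and 0.29 in the settings given above. Of the values under these alternatives of the 5 largest positive and negative fold changes per comparison, 564 kept their direction and side of the threshold, 4 turned and 2 came past it, as given here. RPL41B in cpt1Δept1Δ vs WT, outside that set, was 0.07 with all libraries, -0.04 without WT replicate 1, -0.03 without WT replicate 2, and called at 0.29 without WT replicate 3 and ect1Δpct1Δ replicate 2.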
